A study of Mus musculus with 18 samples.

Results

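The rows described here are the mature mouse miRNAs with late registry numbers, those numbered 1000 and up, together with 3 older names that have been treated with the same doubt, miR-690, miR-709 and miR-720. Rows for the minor arm, marked with an asterisk, were not taken. The rule gave 90 of the 583 rows of the deposited table, and rows with identical values in every library were counted once, which left 89 of 571 distinct rows. The only such pair among the members was miR-1982.1 and miR-1982.2. Of the 89, 86 carry numbers from 1186 to 3475 and 3 are the older names, while the highest number below 1000 in the table is 883. The rule uses names alone and no measured value, although it was chosen with earlier results of these data known.

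The libraries hold small RNA of mammary tumours from 18 crosses. In each, mice of 1 AKXD recombinant inbred strain, a line bred from AKR and DBA/2 parents, were mated to FVB/N-TgN(MMTV-PyVT)634Mul mice, and the F1 animals carried the tumours. All 18 groups therefore share the same transgene and 1 FVB/N parent, and they differ in the AKXD strain, numbered 2, 3, 7, 9, 10, 11, 13, 14, 16, 18, 20, 21, 22, 23, 24, 25, 27 and 28. The transgene is the polyoma virus middle T antigen behind the promoter of the mouse mammary tumour virus, which acts mainly in mammary epithelium, and no cross without the transgene was analysed here. RNA of the snap-frozen tumours of a strain was pooled before sequencing on an Illumina Genome Analyzer IIx, no source used here states the number of mice in a pool or their age, and each strain has 1 library, so that a difference between any 2 strains has no replicate check.

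A miRNA is cut from the stem of a hairpin transcript, by Drosha in the nucleus and Dicer in the cytoplasm, and guides an Argonaute protein to messenger RNAs that pair with its seed, bases 2 to 8. Registry numbers follow the order of submission, and names of high number came mostly from deep sequencing, which also catches pieces of transfer RNA, ribosomal RNA, small nucleolar RNA and repeats. Several such entries were later withdrawn because their sequence lay in one of these RNAs, and some late entries are mirtrons, hairpins that are spliced out as a whole short intron and skip Drosha.

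Mature sequences came from the RefSeq table of build GRCm38.p6. It held an entry of exactly the same name for 34 of the 89 members and an entry with arms that the row does not name for 18, and 37 members are named only. Of the 18 members averaging 10 CPM or more, 2 had an entry of exactly their name, 3 one with arms and 13 none. Among those 13 was miR-1959, the most abundant member. The sequences below are those the text turns on, written 5′ to 3′ with the seed in capitals. miR-1839-5p is the most abundant member with a sequence of its own name. miR-2137 is the member whose level fell most steeply with the reads on miRNA rows in a library. miR-690, miR-3470b and miR-3471 are the 3 that lie in many genes. miR-1187 is a run of alternating bases, and miR-1983 touches a tRNA gene. miR-1961 is shown with let-7c-5p and let-7i-5p because it shares their seed.
miR-1839-5p: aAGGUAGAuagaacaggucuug
miR-2137: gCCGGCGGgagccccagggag
miR-690: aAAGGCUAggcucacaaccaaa
miR-3470b: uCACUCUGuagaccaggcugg
miR-3471: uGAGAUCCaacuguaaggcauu
miR-1187: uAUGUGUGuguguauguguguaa
miR-1983: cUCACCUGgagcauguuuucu
miR-1961: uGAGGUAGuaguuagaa
let-7c-5p: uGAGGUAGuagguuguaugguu
let-7i-5p: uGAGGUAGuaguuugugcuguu

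The libraries held 4359284 (strain 7) to 14939851 (strain 27) reads on miRNA rows. Levels are given as CPM, reads per 1000000 after scaling each library by its total and by a factor of 0.671 (strain 14) to 1.69 (strain 28), and spread as the SD of log2(CPM + 1) over the 18 strains. Every miRNA of the marker lists for luminal and basal epithelium, muscle, leukocytes, red cells, endothelium and fibroblasts had reads in these tumours. The summed muscle markers reached from 22367 CPM (strain 9) to 303245 CPM (strain 14) and the summed luminal markers from 73216 CPM (strain 21) to 125977 CPM (strain 10). On the first principal component of the 281 rows (27.6% of the variance) strains 10, 13, 14 and 20 lay between -13.0 and -7.04 and every other strain at -2.54 or above, and strain 28 had the largest scaling factor, so counts below were repeated without these libraries. In tumour RNA of this kind, fewer cells of a type and less RNA per cell cannot be told apart.

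The members were rare as a group. They took 0.176% of the reads in strain 27 and 0.673% in strain 28, with a median of 0.260%. miR-1959 alone made up 39.0% of all member reads. A mean of at least 10 CPM was reached by 18 of the 89 members (20.2%) and by 263 of the 482 other rows (54.6%), and these 18 held 97.2% of the member reads. The median of the mean levels was 0.506 CPM over the members and 8.96 CPM over all 571 rows.

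**Figure D1:**
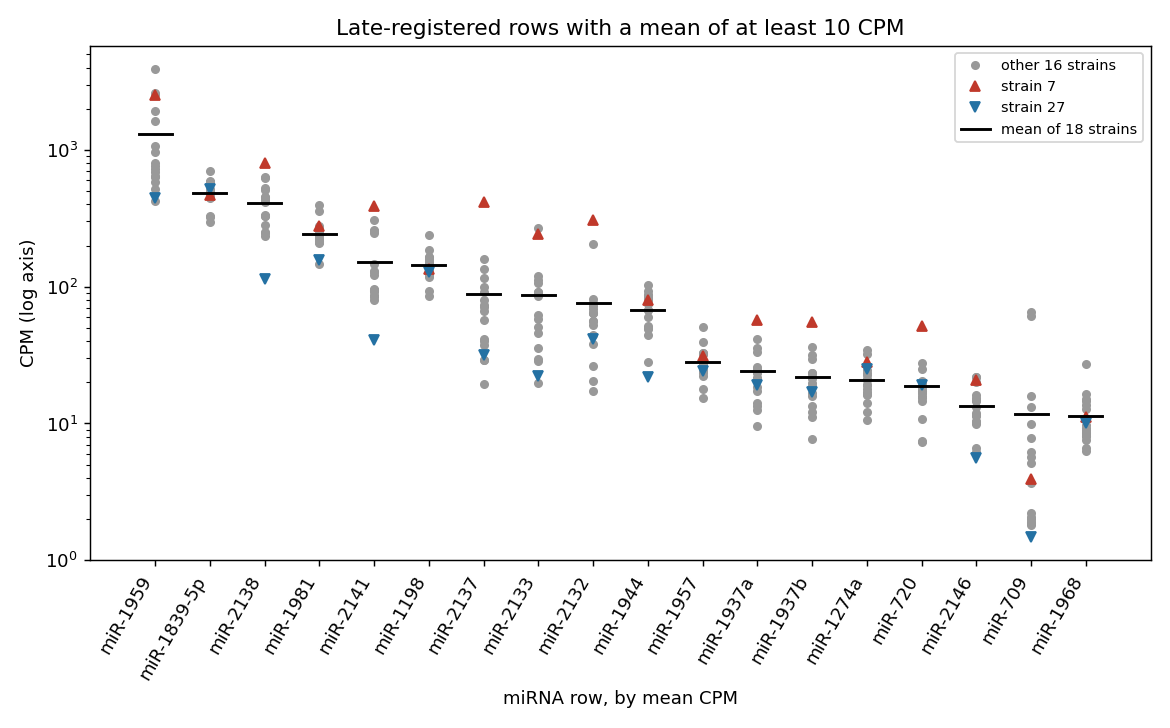
Level of the 18 late-registered rows that averaged 10 CPM or more, in CPM on a log axis, with 1 point per strain library and a bar at the mean of 18 strains. Strain 7 (triangles up) is the highest point for 7 of the rows, and strain 27 (triangles down) is the lowest for 5.

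Of the 18 rows, the most abundant was miR-1959, which ranked 53 among all rows. It was lowest in strain 9 at 425 CPM, had a median of 781 CPM and was highest in strain 18 at 3887 CPM. Strains 2, 21 and 7 followed at 2626, 2535 and 2514 CPM, so the mean of 1301 CPM lay well above the median, and the SD was 0.99.

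miR-1839-5p came next in abundance and was the steadiest of the 18. Its level ran from 296 CPM (strain 21) through a median of 480 CPM to 698 CPM (strain 25), with an SD of 0.31. Its sequence lies on the sense strand at chr7:81529919-81529940 (GRCm38.p6), in a gene that the GENCODE M21 annotation names Mir1839 and files as a small Cajal body RNA (scaRNA), a class that guides the modification of spliceosomal RNA. The same bases are exonic in the long noncoding RNA 2900076A07Rik. Its other arm, miR-1839-3p, averaged 4.43 CPM with an SD of 0.32, and the 5p arm exceeded it from 59.3 times in strain 22 to 202 times in strain 10.

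Of the 3 intronic rows described next, 2 were about as steady. miR-1981, listed as a mirtron, ran from 147 CPM (strain 22) through 233 CPM to 396 CPM (strain 10) with an SD of 0.34, and both arms of its hairpin lie within an intron of Marc2. miR-1198, within an intron of Gripap1 on chromosome X, ran from 85.4 CPM (strain 22) through 140 CPM to 237 CPM (strain 10) with an SD of 0.33. miR-1968, within an intron of Grtp1, had 6.31 CPM in strain 28, a median of 9.52 CPM and 27.1 CPM in strain 10, with an SD of 0.49. All 3 were highest in the same library, strain 10, which was the highest of the 18 for 43 of the 281 rows tested. Without strains 10, 13, 14 and 20 the SD fell to 0.26 for miR-1981 and to 0.34 for miR-1968. The arm counted is not named in these 3 rows, so no sequence is printed for them. Of the other listed mirtrons, miR-1982.1 averaged 0.166 CPM and miR-1224 0.0913 CPM.

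miR-1944, miR-1957 and miR-1274a complete the rows of moderate spread. miR-1944 ran from 21.9 CPM (strain 27) through 71.2 CPM to 103 CPM (strain 21), with strain 2 next to the bottom at 28.2 CPM. miR-1957 ran from 15.4 CPM (strain 9) through 26.9 CPM to 50.5 CPM (strain 2). Their SDs were 0.59 and 0.38.

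A run of consecutive numbers, miR-2132 to miR-2146, is listed here as ribosomal RNA related from background knowledge. Of its 15 names, 10 were in the table and 6 had a mean of at least 10 CPM. The sum of the 10 rows was lowest in strain 27 at 261 CPM, had a median of 786 CPM and reached 2215 CPM in strain 7. These are the libraries with the most and the fewest reads on miRNA rows.

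miR-2138 was the most abundant of them, with 114 CPM in strain 27, a median of 421 CPM and 807 CPM in strain 7. miR-2141 followed the same ends, from 40.9 CPM (strain 27) through 108 CPM to 390 CPM (strain 7), with strains 13, 10, 14 and 20 next at 308, 262, 254 and 245 CPM. miR-2137 was lowest in strain 10 at 19.6 CPM, had a median of 68.8 CPM and stood at 415 CPM in strain 7, far above strain 11 at 161 CPM.

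The next 3 rows had other outer strains. miR-2133 ran from 19.6 CPM (strain 18) through 73.9 CPM to 270 CPM, and its highest strain was strain 23, with strain 7 next at 245 CPM and all others at 120 CPM or less. miR-2132 ran from 17.3 CPM (strain 2) through 60.2 CPM to 310 CPM (strain 7), with strain 11 next at 205 CPM and strain 13 after it at 82.0 CPM. miR-2146 had a narrower range, from 5.59 CPM (strain 27) through 12.6 CPM to 22.0 CPM (strain 2). Thus strain 7 was the highest library for 4 of the 6 rows, and the 6 profiles were not copies of each other, since strains 23, 11 and 2 were each high for 1 or 2 of them.

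**Figure D2:**
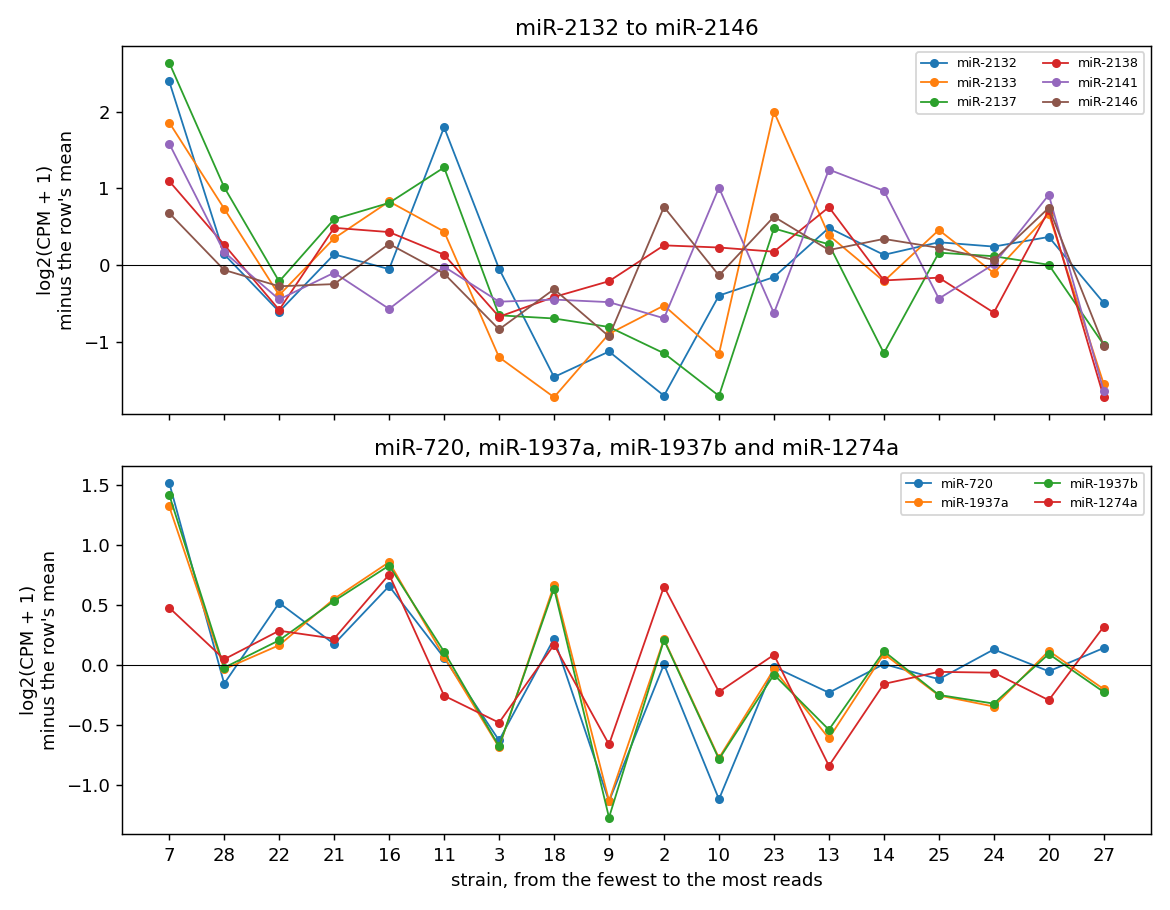
log2(CPM + 1) minus the row's own mean over the 18 strains, with 1 line per row and the strains ordered from the fewest to the most reads. All 6 rows between miR-2132 and miR-2146 are above their mean in strain 7 and below it in strain 27, and miR-720, miR-1937a and miR-1937b move together from strain to strain.

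The spread of these 6 rows had a median SD of 0.91, against 0.61 over the 18 members and 0.45 over all 281 rows. Of the 10 names present in the deposited table, only miR-2137 had a RefSeq sequence. It lies at chrX:72992113-72992133 (GRCm38.p6, plus strand) in an intron of Zfp185, and 85.7% of its bases are G or C, the highest share among the 34 members with a sequence of their own name. It matched the transcript of 1 gene of GENCODE M21, its own. The transcripts searched do not hold the long ribosomal RNA precursor, so no statement on a ribosomal match follows from that.

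The rows listed as transfer RNA related were miR-720, miR-1937a, miR-1937b and miR-1983, with miR-1937c not in the table. miR-720 ran from 7.32 CPM (strain 9) through 17.4 CPM to 51.5 CPM (strain 7), and the next strain, 16, had 27.9 CPM. miR-1937a ran from 9.59 CPM (strain 9) through 22.5 CPM to 57.1 CPM (strain 7). miR-1937b ran from 7.68 CPM (strain 9) through 20.5 CPM to 55.2 CPM (strain 7). For all 3 the lowest strains were 9 and 10 and the highest was 7. The SDs were 0.60, 0.61 and 0.63.

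miR-1937a and miR-1937b were nearly one profile. Their ratio stayed between 1.04 (strain 7) and 1.25 (strain 9) in every library, with a median of 1.11. No source used here states how reads that fit both names were assigned, so the 2 rows may hold many of the same reads and are not independent.

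miR-1274a, a name also known from transfer RNA, was not on the list and was added to it after its values had been seen. It had 10.7 CPM in strain 13, a median of 19.9 CPM and 34.3 CPM in strain 16, with an SD of 0.43, and strain 7 was the third at 28.2 CPM. miR-1983 averaged 2.77 CPM, from 0.691 CPM (strain 25) to 5.07 CPM (strain 16). Its sequence at chr13:21896930-21896950 (GRCm38.p6, minus strand) overlaps the RefSeq tRNA gene n-TItat14 by 13 of its 21 bases, so part of it lies outside that gene. No other member with a sequence overlapped a tRNA, rRNA or snoRNA gene of that table.

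Between-strain differences in the 18 rows were larger than read counting alone gives. The SD was at least 3.66 times the SD that counting error would produce, in all 18. This says nothing about how pools of the same strain would differ, since there are none. The same ratio is not given here for the other rows, so nothing particular to the members follows from it.

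An SD of at least 1 log2 was seen in 3 of the 18 members, miR-709, miR-2133 and miR-2137. The background over all 281 rows was 20, or 7.12%. miR-709 averaged 10 CPM only with both strains 21 and 16, the same libraries that give it its spread, so its place in these counts follows in part from the filter. miR-1959 and miR-2132 were just inside the limit at 0.99 each. The highest strain was at least 10-fold above the lowest in 4 of 18 members, against 36 of 281 rows (12.8%), and these were miR-709 (44.2-fold), miR-2137 (21.2-fold), miR-2132 (18.0-fold) and miR-2133 (13.8-fold). Without strain 7, the number of members with an SD of at least 1 went from 3 to 1, while over all 281 rows it went from 20 to 19.

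**Figure D3:**
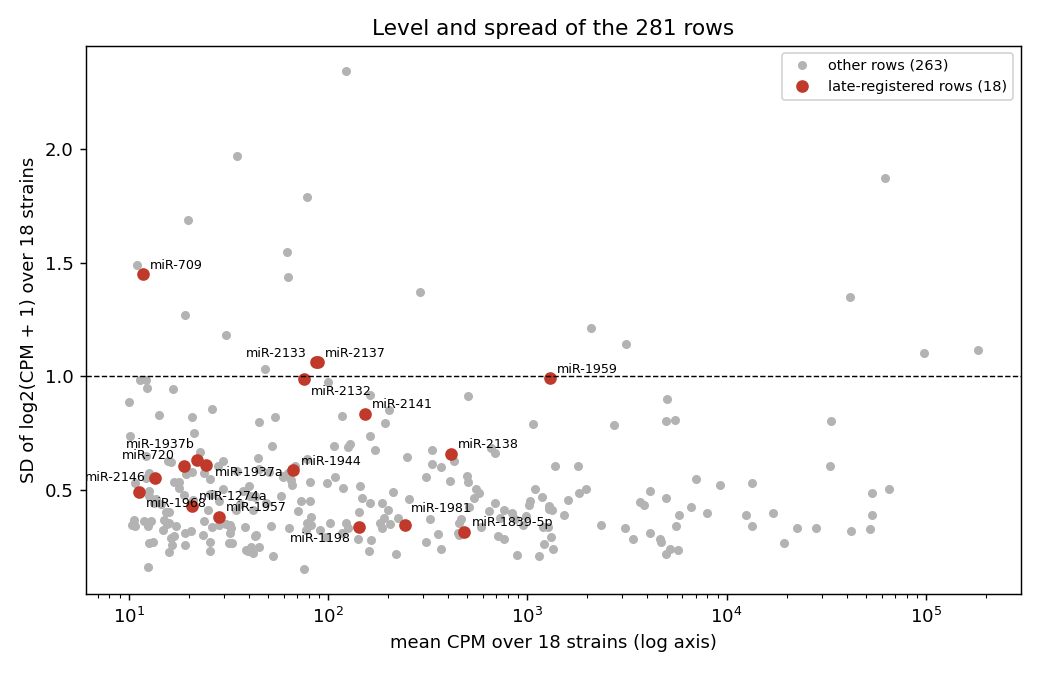
Mean level (CPM, log axis) against the SD of log2(CPM + 1) over the 18 strains, with 1 point for each of the 281 rows of at least 10 CPM. miR-709 has the largest SD of the late-registered rows at 1.45, and miR-1839-5p, miR-1198 and miR-1981 lie lowest among them, at 0.31 to 0.34 (dashed line at 1).

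Which strain stood at the ends was uneven. Strain 7 was the highest of the 18 for 7 of the 18 members and for 22 of all 281 rows (7.83%). Those 7 were miR-2138, miR-2141, miR-2137, miR-2132, miR-1937a, miR-1937b and miR-720. Strain 27 was the lowest for 5 members and for 18 of 281 rows (6.41%), and strain 9 was the lowest for 5 members and for 17 of 281 rows (6.05%). In strain 7 the summed fibroblast markers were the lowest of the 18 at 601 CPM and the summed muscle markers were the second lowest at 23893 CPM. Strain 9 had the lowest muscle sum, 22367 CPM, and ranked 7 of 18 for fibroblast markers. It was the lowest strain for miR-720, miR-1937a and miR-1937b, which strain 7 held highest. The part of these cell types in the levels was not tested.

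Strain 7 has the fewest reads on miRNA rows and strain 27 the most. The level of every row was therefore fitted against log2 of this library total with limma. Depth here means this total, which counts reads on miRNA rows only and is not the number of reads sequenced. A slope of -1 means that log2(CPM + 1) fell by 1 for each 2-fold rise in reads. At a Benjamini-Hochberg adjusted p under 0.05, 14 of 281 rows had a slope other than 0 (4.98%), and 6 of these were lower at greater depth (2.14%). Of the 18 members 1 passed, miR-2137, with a slope of -1.41 ± 0.34 (SE, n = 18, limma adjusted p = 0.0197).

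That call rested on strain 7. Without it the slope of miR-2137 was -1.03 ± 0.39 with a limma adjusted p of 0.121, and the members called were 0, against 11 of 281 rows. With libraries scaled by their totals alone, 7 of the 18 members were called, against 21 of 282 rows. The other 17 members did not pass, with miR-1937b (slope -0.73, limma adjusted p = 0.0585) and miR-1959 (slope -1.11, limma adjusted p = 0.0585) the nearest. The slope was below 0 in 14 of the 18 members and in 122 of the 281 rows (43.4%), with medians of -0.45 and 0.06. The 4 members above 0 were miR-1839-5p, miR-1968, miR-1198 and miR-1981. At an unadjusted p under 0.05, 5 members were lower at greater depth, against 22 of 281 rows (7.83%).

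**Figure D4:**
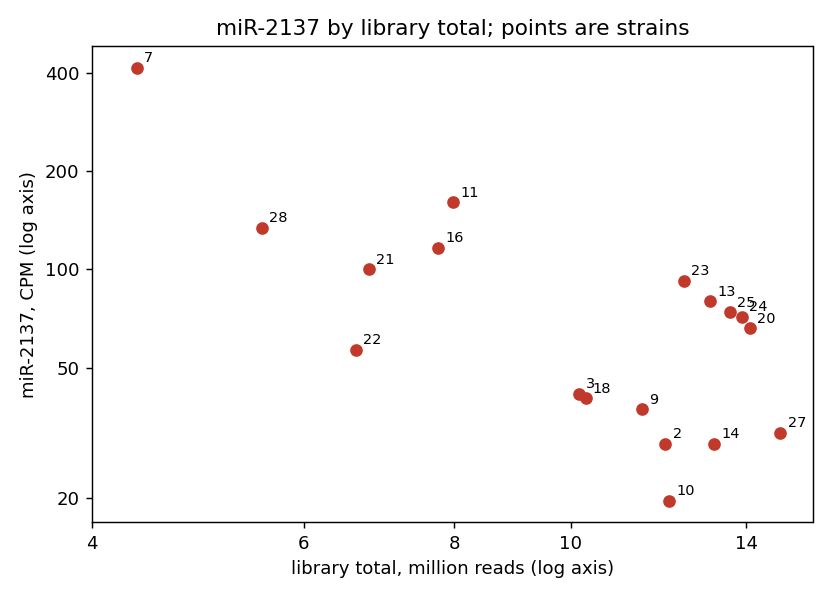
miR-2137 (CPM, log axis) against the reads on miRNA rows in each library (log axis, in units of 1000000 reads). Each strain is 1 point, labelled by its number. Strain 7, with the fewest reads, has 415 CPM, and the libraries with more reads than strain 11 all lie below 100 CPM.

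miR-709 was the most variable member. Its lowest level was 1.48 CPM (strain 27), the median 4.51 CPM and the highest 65.2 CPM (strain 21). Strain 16 was close to the top at 61.5 CPM, strains 2 and 23 followed at 15.9 and 13.2 CPM, and the other 14 strains lay under 10 CPM, 7 of them between 1.48 and 2.20 CPM. Its mean of 11.8 CPM passed the 10 CPM filter only through strains 21 and 16: without strain 16 the mean was 8.61 CPM and without strain 21 it was 8.54 CPM. The SD was 1.24 without strain 16, 1.23 without strain 21 and 0.91 without both, with 10.7-fold between the highest and lowest of the 16 strains left. miR-709 is on the list of repeat related names, and the sum of that list ran from 6.15 CPM (strain 10) to 74.6 CPM (strain 21), where miR-709 gave 65.2 CPM of it. The other 4 rows of that list were low, at 3.63 CPM for miR-1186, 1.31 CPM for miR-1195, 1.23 CPM for miR-1186b and 0.154 CPM for miR-1196.

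Strain 21, 16 or 2 was also the highest for 10 of the 21 members averaging 1 to 10 CPM. Below that it was 1 of 6 members at 0.5 to 1 CPM and 7 of 19 at 0.2 to 0.5 CPM. It was 1 of 10 at 0.1 to 0.2 CPM and 2 of 15 under 0.1 CPM. The share over all rows is not given, so nothing particular to the members follows. The rows described next were picked for their levels in these strains. miR-2135 had 28.2 CPM in strain 2, 14.0 CPM in strain 16 and 12.5 CPM in strain 21, against a median of 3.81 CPM and a lowest level of 1.13 CPM (strain 9). miR-2145 had 22.1, 15.6 and 13.9 CPM in strains 2, 21 and 16, against a median of 5.0 CPM. These 2 rows carry numbers of the miR-2132 to miR-2146 run but did not follow its more abundant members, since strain 7 was at 4.88 and 5.37 CPM.

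miR-1187 had 11.2 CPM in strain 21 and 8.95 CPM in strain 16, then 4.16 CPM in strain 7, with a median of 1.57 CPM. Strain 2 was near that median, at 1.90 CPM, so this row shared only the other 2 high strains with miR-709. miR-1940 had 11.7 CPM in strain 2, 6.24 CPM in strain 16 and 4.95 CPM in strain 21, with a median of 3.35 CPM. miR-690 had 7.02 CPM in strain 16 and 6.06 CPM in strain 2 but 3.01 CPM in strain 21, with a median of 2.53 CPM and 1.20 CPM in strain 9.

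**Figure D5:**
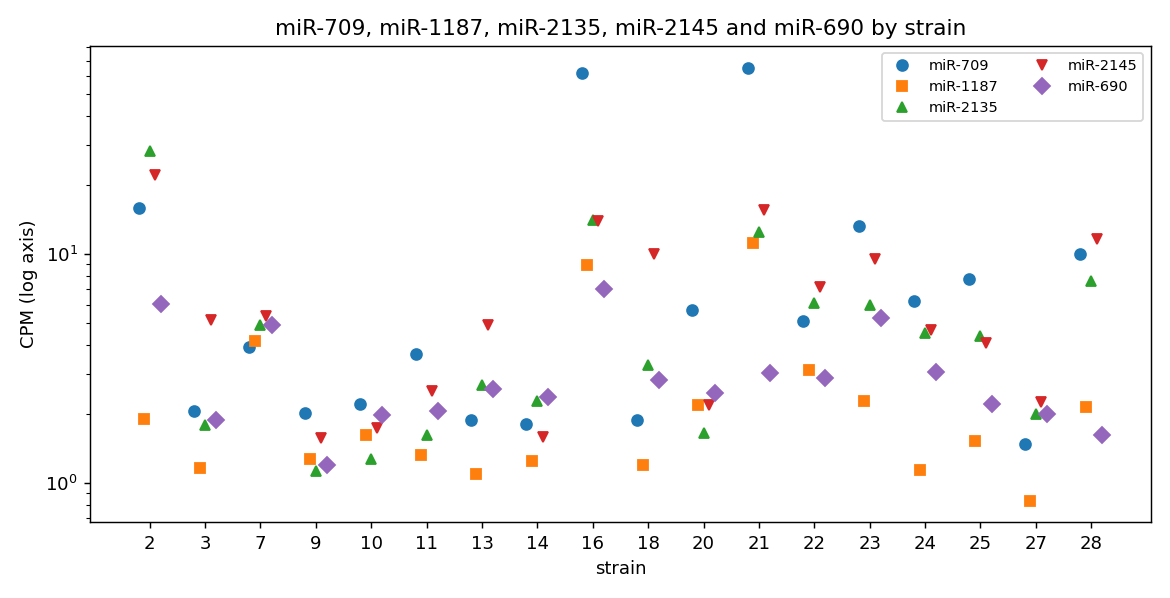
Level (CPM, log axis) of miR-709, miR-1187, miR-2135, miR-2145 and miR-690 in each of the 18 strains, with 1 point per row and library. miR-709 and miR-1187 are highest in strains 21 and 16, and miR-2135 and miR-2145 in strain 2.

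The basal epithelial markers miR-203 and miR-205, both detected, were high in the same libraries, by which the low rows above were picked. Their sum was 10656 CPM in strain 2, 5336 CPM in strain 21 and 5048 CPM in strain 16, which rank 1, 2 and 4 of 18, against a median of 2509 CPM and a lowest sum of 1568 CPM (strain 22). These libraries also stood at the ends of other marker lists. Strain 16 had the lowest summed endothelial markers, 8287.5 CPM, and strain 21 the lowest summed luminal markers, 73216 CPM. The part of these cell types in the levels of miR-709, miR-2135, miR-2145 and miR-1187 was not tested.

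The 3 older names were compared with each other over the 18 strains by two-sided permutation tests of 100000 resamples, adjusted over the 3 pairs by Benjamini-Hochberg. These p-values measure only how often shuffling the 18 libraries gave a relation at least as strong. They say nothing about repeat pools of a strain. miR-720 and miR-690 rose together, with Spearman's rho 0.668 (permutation p = 0.00309, adjusted 0.00927) and Pearson's r 0.635 (permutation p = 0.00444, adjusted 0.0123). Without strains 7 and 9, the farthest from the median of miR-720, r was 0.498 (permutation p = 0.0509), so the relation of the levels rests in part on those strains. Without strain 16 rho was 0.566 and no longer passed (permutation p adjusted 0.0559).

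miR-709 and miR-690 had rho 0.540 (permutation p = 0.0224, adjusted 0.0336) and r 0.608 (permutation p = 0.00823, adjusted 0.0123), and without strains 21 and 16 r was 0.569 (permutation p = 0.0207). The call of rho was lost when strain 2, 16, 21 or 23 was left out, with rho between 0.466 and 0.505. miR-709 and miR-720 had rho 0.187 (permutation p = 0.456, adjusted 0.456) and r 0.322 (permutation p = 0.192, adjusted 0.192), which did not pass, and without strains 21 and 16 r was 0.212 (permutation p = 0.438). With libraries scaled by their totals alone this last rho was 0.550 (permutation p adjusted 0.0195).

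As a description over 18 libraries, the rows of at least 10 CPM most like miR-720 in Spearman's rho were miR-1937b (0.845), miR-1937a (0.831) and miR-223 (0.792), a miRNA of myeloid cells. Those most like miR-709 were miR-210 (0.725), known for its rise in low oxygen, miR-203 (0.608) and miR-2133 (0.598). Those most like miR-690 were miR-720, let-7b* and miR-1937a, each at 0.668. All of these values share the same libraries and scaling factors.

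Whole mature sequences were looked up in 141767 GENCODE M21 transcripts. Of the 34 members with a sequence of their own name, 2 (5.88%) lay on the sense strand of an annotated structured RNA that is not a miRNA, and so did 1 of 96 other rows (1.04%). The 2 were miR-1839-5p, in the scaRNA above, and miR-3470b, in the unclassified small RNAs Gm22642 and Gm25735. The 1 other row was miR-706. With entries whose arm the row does not name added, the counts were 2 of 52 members (3.85%) and 3 of 305 other rows (0.984%). Those 3 other rows were miR-664, miR-677 and miR-706. Counts this small show no difference. Among the 18 members of at least 10 CPM, only miR-1839-5p and miR-2137 had a sequence of their own name. The member shares here and below therefore describe mostly rows under 10 CPM, and not most of the abundant members.

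Sequences present in 10 or more genes were found for 3 of the 34 members (8.82%) and for 2 of 96 other rows (2.08%). With entries whose arm the row does not name added, they were 3 of 52 members (5.77%) and 2 of 305 other rows (0.656%). miR-3470b lay in transcripts of 591 genes in the sense direction and of 504 in the antisense direction. For 196 of the sense genes a matching transcript was filed as one that keeps an intron. Whether the match lay in that intron was not checked. miR-3471 lay in 86 genes in the sense and 27 in the antisense direction, and miR-690 in 19 and 1. GENCODE files part of the sense genes as miRNAs, 45 of 591 for miR-3470b, 52 of 86 for miR-3471 and 16 of 19 for miR-690. With 1 mismatch allowed, miR-1187 and miR-3472 joined them, which made 5 of 34, against 7 of 96. With a limit of 2 genes in place of 10, the share was 23.5% of the members (8 of 34) and 25% of the other rows (24 of 96). The order of the shares thus depended on the limit. A row's own miRNA gene and a host gene are among the genes counted. The looser limit therefore also takes rows such as miR-1956, which lies in an exon of Eif4e, and does not measure repeat copies alone.

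These many-copy rows were low. miR-3470b averaged 5.77 CPM, highest in strain 20 at 12.8 CPM, and miR-3470a averaged 3.90 CPM, with a ratio of miR-3470b to miR-3470a between 1 (strain 7) and 2.13 (strain 9). miR-3471 averaged 0.266 CPM with reads in 15 strains. miR-3472, in transcripts of 7 genes, averaged 0.304 CPM. A read from any of the copies would fit such a row equally.

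Composition set single rows apart more than it did the group. The median share of G and C was 52.3% over the 34 members and 50% over 96 other rows, and the median length was 22 bases in both. Lengths ran from 17 to 26 bases among the members and from 20 to 24 among the others. The longest was miR-1946b, which averaged 0.321 CPM. miR-1187, at 34.8% G and C, holds an unbroken run of 11 alternating U and G bases.

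The shortest was miR-1961, with 17 bases. Its seed is that of the let-7 family, of which the table's let-7 rows and miR-98 share it, and its first 11 bases equal those of let-7c-5p and its first 13 those of let-7i-5p. It had 34 reads in all, over 13 strains, with a mean of 0.224 CPM.

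The remaining 71 members had means under 10 CPM. Of them 30 had reads in all 18 strains, 21 averaged 1 to 10 CPM and 50 less than 1 CPM, and 33 had fewer than 50 reads in total. A row with no reads and, in strain 25, one with a single read are both written as 0, so a 0 sets no level there. Besides those already described, the 21 rows were miR-1929 (highest in strain 10 at 20.4 CPM), miR-3473 (strain 7, 22.3 CPM), miR-2134 (strain 16, 16.6 CPM), miR-1943 (strain 14, 10.6 CPM), miR-1191 (strain 23, 4.19 CPM), miR-1964 (strain 18, 3.00 CPM), miR-1965 (strain 2, 2.79 CPM), miR-2140 (strain 2, 3.43 CPM) and miR-1931 (strain 20, 3.11 CPM). The next library of miR-3473 was strain 10 at 9.07 CPM. Of the 21, miR-1191 was the steadiest, with an SD of 0.28, and miR-2135 the most variable, with an SD of 1.05.

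A mean of 0.5 to 1 CPM was found for 6 rows with reads in 16 to 18 strains, miR-1895, miR-1932, miR-1949, miR-1958, miR-1927 and miR-1945. Of these miR-1949 had the highest single level, 3.44 CPM in strain 16. Means of 0.2 to 0.5 CPM were found for 19 rows with 34 to 87 reads each, in 13 to 18 strains. They were miR-1941-5p, miR-1306, miR-1199, miR-1946a, miR-1194, miR-3475, miR-1946b, miR-1947, miR-3472, miR-1936, miR-1956, miR-3471, miR-3099, miR-1960, miR-1939, miR-1953, miR-1961, miR-1193 and miR-3474. miR-1306 lies in an exon of Dgcr8, which encodes the partner of Drosha, and averaged 0.422 CPM. miR-1941-5p reached 2.72 CPM in strain 14, and its other arm, miR-1941-3p, averaged 0.0420 CPM.

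The last 25 rows had 3 to 37 reads each. Means of 0.1 to 0.2 CPM, in 7 to 17 strains, were found for miR-1934, miR-1970, miR-1955, miR-1982.1, miR-1950, miR-1196, miR-1930, miR-1938, miR-1948 and miR-1903. Means under 0.1 CPM, in 2 to 11 strains, were found for miR-1224, miR-1933-3p, miR-1971, miR-1190, miR-1969, miR-1933-5p, miR-1963, miR-1951, miR-1897-5p, miR-1954, miR-1941-3p, miR-1907, miR-1893, miR-1188 and miR-1966. The rarest were miR-1188, with 4 reads, and miR-1966, with 3 reads, each in 2 strains.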

How the data were processed

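The deposited table holds log2 values with 2 decimals for 583 mature miRNAs in 18 libraries, 1 per strain. The submitters' processing notes name BWA and mm9 but give no version or use for them, and no source used here states the counter or annotation. Each deposited log2 value is log2 of a whole read number times 1 constant per library (100.0% of 3818 values of up to 50 reads, within 0.006 log2). Whole reads were recovered from it and converted to CPM with trimmed mean scaling (trimming 30% of log ratios and 5% of abundances). Before log2, 1 CPM was added, so changes of low rows are understated. Tests used rows averaging 10 CPM or more, except for the pairs, where miR-690 averaged 3.07 CPM. Depth slopes were fitted with limma 3.58.1 in R 4.3.3 on all 281 rows (trended and robust prior). On simulated data with 281 rows, it called 19 of 20 rows of slope 1, 20 of 20 of slope 2 and 1 of 241 without slope. Every simulated row had noise of SD 0.45, near the median SD of all rows, while the 18 members had a median SD of 0.61. The simulation therefore does not show how often slopes of the more variable members would be called. Pairs were tested with scipy 1.17.1. Sequences were matched whole to transcripts, since no genome was used here, and nuclear tRNAs and long rRNA are not among those transcripts. All members of at least 10 CPM are named with their values, lower ones by range. The members and lists were chosen with earlier results of these data known. Alternatives were other scalings, filters, pseudocounts, left out strains and looser sequence matches. SDs from counting cover counting error only.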

Additional observations from a re-analysis of the deposited data

How the results depend on the processing

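The number of members with an SD of at least 1 was 3 of 18. It was 0 among the 6 members of at least 100 CPM, 0 with a pseudocount of 10 CPM, 5 without strains 10, 13, 14 and 20, and between 1 (without strain 7) and 5 with any other strain left out. A 10-fold range was seen in 0 members at 100 CPM and in 14 of 89 with no filter (67 of all 571 rows). A row at 0 in some strain has no such ratio and could not be called. Only 48 of the 89 members had reads in all strains, so the counts with no filter are low. The members called for depth went from 1 to 7 with library totals alone (21 of 282 rows in all), 0 at 100 CPM (4 of 139), 4 with no filter (20 of 571), 2 without strains 10, 13, 14 and 20 (10 of 282), 3 without strain 28 (13 of 277) and 3 with identical rows all counted (19 of 282), and ranged from 0 (without strain 7) to 3 with 1 strain left out. Over all alternatives, rho ranged from 0.466 to 0.695 for miR-709 and miR-690 (adjusted p 0.00297 to 0.0929; 0.466 to 0.664 with 1 strain left out), from 0.566 (without strain 16, adjusted p 0.0559) to 0.756 for miR-720 and miR-690 (0.566 to 0.735 with 1 strain left out), and from 0.0686 to 0.550 (library totals alone) for miR-709 and miR-720, all by permutation. Members in many genes were 5 of 34 with 1 mismatch (7 of 96 other rows) and 8 of 34 with a limit of 2 genes (24 of 96), where the members no longer had the larger share. The SD of miR-709 without strains 16 and 21, a setting chosen after seeing the data, was 0.91. The slope of miR-2137 and the 3 rho kept their sign in every alternative run, and the cause of these shifts was not tested. The pairs used no filter on level, since miR-690 averaged 3.07 CPM, and they were not run under the other filter settings. No paired analysis was possible because each strain has 1 library. Depth limits the 71 rows under 10 CPM most.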
